A study of Homo sapiens with 55 samples.

Results

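Alternative acceptors 31 to 150 nt apart are pairs of 3' splice sites that share 1 donor, so that the intron ends either at an upstream acceptor, which leaves the stretch between the sites in the exon, or at a downstream acceptor, which removes it. Members were the alternative 3' splice site events with exactly 2 competing junctions whose intron lengths differed by 31 to 150 nt, listed in all 4 deposited splicing tables. This gave 4836 of the 32660 acceptor pairs (14.8%), out of 110816 splicing events of every type. Pairs 3 nt apart made up 64.7% of all pairs (21126), pairs 10 to 30 nt apart 8.49% (2773) and pairs more than 150 nt apart 4.18% (1366). The value given throughout is the usage of the upstream acceptor, in percent of the transcripts of the pair, and a difference between groups is in percentage points.

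The series measured RNA splicing in K562 cells, a human leukaemia line, and in 293T cells, a human embryonic kidney line, in 4 panels. The SF3B1 panel held K562 cells that were WT or carried a knock-in of SF3B1 K700E, each treated with a guide RNA against Renilla (sgRenilla, a control with no human target; 1 library per genotype), GPATCH8 (sgGPATCH8; 2 libraries, 1 for each of 2 guides) or SUGP1 (sgSUGP1; 2 libraries, 1 for each of 2 guides). Each of these 10 libraries was sequenced in 2 runs, whose values were averaged. The SRSF2 panel held K562 cells that overexpressed WT or P95H SRSF2, and the U2AF1 panel held K562 cells that overexpressed WT or S34F U2AF1, each with sgRenilla or sgGPATCH8 and 3 libraries per group. WT in these 2 panels therefore means overexpression of the unmutated factor. The 293T panel held 2 sgRenilla libraries (labelled WT-1), 4 sgGPATCH8 and 4 sgSUGP1 libraries (labelled WT-1 and WT-2), which are 2 libraries for each of 2 guides per target. The table's columns name the guide but could not be tied to WT-1 or WT-2; each guide had its own mean in the fit and guides were weighted equally. In the K562 panels each genotype carries 1 cell name in the labels. A difference between cell populations thus cannot be told apart from an effect of the mutation. The labels do not say whether the libraries of a group came from separate cultures. P-values therefore measure only the spread between these libraries, which may be technical. In the SF3B1 panel the 2 libraries of an sgGPATCH8 or sgSUGP1 group carried different guides and were fitted as 1 group. The spread there thus includes the difference between guides, and it also stands in for the single sgRenilla libraries. The tables hold no expression levels, so neither the identity of the cells nor the loss of the targeted genes was checked. They hold fractions without read counts, so the depth behind each value is unknown, and the labels give the reads per library as a range only.

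During splicing the branch point, the tract of pyrimidines after it and the AG at the end of the intron are read by separate proteins: SF3B1 is part of the U2 particle that holds the branch point, U2AF1 contacts the AG and the bases beside it, and SRSF2 binds short exonic motifs. Cancer-associated changes in each are known to shift the choice among acceptors or exons: K700E is known for acceptors a short way upstream of the usual one, S34F for preferring a C or A over a T in front of the AG, and P95H for favouring CCNG over GGNG motifs. GPATCH8 and SUGP1 are proteins with a G-patch, a domain that activates RNA helicases, and SUGP1 is known to lose its contact with SF3B1 K700E. For acceptors 31 to 150 nt apart, use of the upstream site adds an exon piece long enough to carry its own motifs, a stop codon or a frame shift.

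The stretches between the acceptors of the pairs on which the results below turn were read from GENCODE release 29 transcripts on GRCh38, each 5' to 3' on the strand of its gene and ending at the last base of the intron when the downstream acceptor is used. Capitals mark the last 3 bases before a splice site: the downstream acceptor at the right end and, where the transcripts also held the 25 bases before it, the upstream acceptor. The first set holds pairs whose usage moved with sgGPATCH8: KANSL3 (chr2:96631483-96631512, minus strand, the last 30 bases of its stretch), TMEM134 (chr11:67464662-67464696, minus), ALG8 (chr11:78106913-78106946, minus), STYXL1 (chr7:76000955-76001002, minus), DRAM2 (chr1:111139667-111139736, minus) and RNF44 (chr5:176532130-176532218, minus).
KANSL3: gcccggtcctatttcctcacctgtttaCAG
TMEM134: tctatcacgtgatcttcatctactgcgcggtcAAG
ALG8: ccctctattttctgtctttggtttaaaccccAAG
STYXL1: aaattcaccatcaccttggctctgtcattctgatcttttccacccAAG
DRAM2: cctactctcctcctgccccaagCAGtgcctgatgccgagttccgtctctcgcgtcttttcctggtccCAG
RNF44: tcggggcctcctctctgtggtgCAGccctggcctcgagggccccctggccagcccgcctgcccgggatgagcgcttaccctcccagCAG
TMEM134, ALG8 and STYXL1 share a downstream AAG, the acceptor of 10.8% of the members whose downstream acceptor was read. KANSL3, PGS1 and BTN2A3P, which also fell with sgGPATCH8, have a downstream CAG. In WT cells of the SF3B1 panel, pairs with a downstream AAG had a median difference of 0.75 points with sgGPATCH8. Of these 193 pairs 102 were higher and 83 lower, and the median over all members was 0.50 points. Pyrimidines were counted in the 20 bases before the last 3 of the downstream acceptor. They made up 80% in KANSL3, STYXL1 and DRAM2, 70% in TMEM134 and ALG8 and 60% in RNF44. The median over all members was 65%.

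The second set holds pairs that moved with SF3B1 K700E or sgSUGP1: DVL2 (chr17:7227712-7227808, minus strand), RAD9A (chr11:67393691-67393722, plus) and the last 30 bases of SKIV2L (chr6:31968656-31968685, plus).
DVL2: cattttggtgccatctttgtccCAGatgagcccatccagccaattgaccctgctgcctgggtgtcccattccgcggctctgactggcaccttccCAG
RAD9A: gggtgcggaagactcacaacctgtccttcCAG
SKIV2L: aggagaaggctgacgggtggctctctgCAG
All of these end at a CAG, as do 72.9% of the members whose downstream acceptor was read. Other pairs called for K700E or sgSUGP1 differ: TMEM218 and CCDC61 end at a GAG and ABCC5 at a TAG. Pyrimidines, counted in the same way, made up 65% in DVL2 and RAD9A and 50% in SKIV2L.

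The third set holds pairs that moved with SRSF2 P95H, shown for the exonic motifs in the stretch: SLTM (chr15:58899884-58899937, minus strand), PPP4R1 (chr18:9595103-9595153, minus) and DHX29 (chr5:55273378-55273426, minus).
SLTM: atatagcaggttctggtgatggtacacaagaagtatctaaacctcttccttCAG
PPP4R1: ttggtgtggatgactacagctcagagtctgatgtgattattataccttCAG
DHX29: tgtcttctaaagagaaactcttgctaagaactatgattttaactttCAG
The stretches of SLTM and PPP4R1 each held 1 GGNG and no CCNG, and that of DHX29 held neither. The fourth set holds pairs with low p-values for U2AF1 S34F, shown for the base before the AG: TAF1D (chr11:93738441-93738499, minus strand), MKLN1-AS (chr7:131326896-131326960, minus) and EGFL8 (chr6:32167062-32167146, plus).
TAF1D: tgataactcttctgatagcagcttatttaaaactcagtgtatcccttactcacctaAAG
MKLN1-AS: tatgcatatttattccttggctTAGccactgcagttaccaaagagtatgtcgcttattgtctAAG
EGFL8: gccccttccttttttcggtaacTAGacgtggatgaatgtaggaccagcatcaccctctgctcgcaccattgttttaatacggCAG
TAF1D and MKLN1-AS have a downstream AAG, and MKLN1-AS and EGFL8 an upstream TAG.

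Of the 4836 pairs, 4214 (87.1%) matched an annotated gene by the lengths of their introns, in 3318 genes. Both junctions were annotated for 65.4% of the pairs, the upstream one alone for 15.7%, the downstream one alone for 6.04% and neither for 12.9%. The distance had a median of 62 nt (quartiles 44 and 90), and 47.7% of the pairs lay 31 to 60 nt apart. The distance was a multiple of 3, which keeps the reading frame, for 39.8% of all pairs; the share was 46.3% of the 2418 stretches in coding sequence, 35.4% of the 497 in noncoding transcripts and 27.7% of the 545 in untranslated regions. The downstream acceptor read CAG in 72.9%, TAG in 13.4%, AAG in 10.8% and GAG in 2.38% of the 4035 pairs whose stretch could be read. Upstream acceptors could be read for 1251 pairs, of which 65.7% read CAG and 22.3% TAG. CCNG and GGNG were searched on the transcript strand only, with overlapping matches counted. A CCNG lay in 75.2% and a GGNG in 53.1% of the stretches; 51.3% held more CCNG than GGNG and 20.9% more GGNG than CCNG.

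In control cells (sgRenilla in WT cells of each panel) 58, 51.7, 51.4 and 52.8% of the pairs with a value in the SF3B1, SRSF2, U2AF1 and 293T panels used both acceptors at 5 to 95%, and the rest used 1 acceptor almost alone. The median upstream usage was 72% for SF3B1 WT cells, 76.8 and 76.7% where WT SRSF2 and WT U2AF1 were overexpressed, and 77% in 293T cells; these levels come from tables made separately. Usage was under 5% for 15 to 17.5% of the pairs with a value, and over 95% for 26.9 to 31.5%. Usage differed by the place of the stretch, which was read only from annotated transcripts that use the upstream acceptor. Pairs with only the downstream junction annotated therefore have no place. Over the 3430 pairs with a control value in every panel, median usage in the 4 panels was 94.5 to 95.7% in coding sequence. It was 33.3 to 37% for untranslated regions and 9 to 10.5% for noncoding transcripts. Annotation went with usage as well. Medians were 96.5 to 97.7% with only the upstream junction annotated and 3.67 to 4.5% with only the downstream one. A pyrimidine-poor downstream acceptor (under 50% of the 20 bases before its last 3, 221 pairs) went with medians of 97 to 98%. A pyrimidine-rich one (75% or more, 876 pairs) went with 39.2 to 45%. An upstream AAG went with medians of 18 to 21% (85 pairs) and a downstream TAG with 58 to 61% (385 pairs), against 77.5 to 84.3% for a downstream CAG (2159 pairs). These are descriptions of the same pairs in 4 panels, and the classes overlap. Just outside the limits of distance, pairs 28 to 30 nt apart had medians of 37.5 to 40.8% and those 31 to 33 nt apart 58.5 to 65.5%; pairs 148 to 150 nt apart had 33.2 to 42.2% (18 pairs) and those 151 to 153 nt apart 73.5 to 90.7% (24 pairs).

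**Figure D1:**
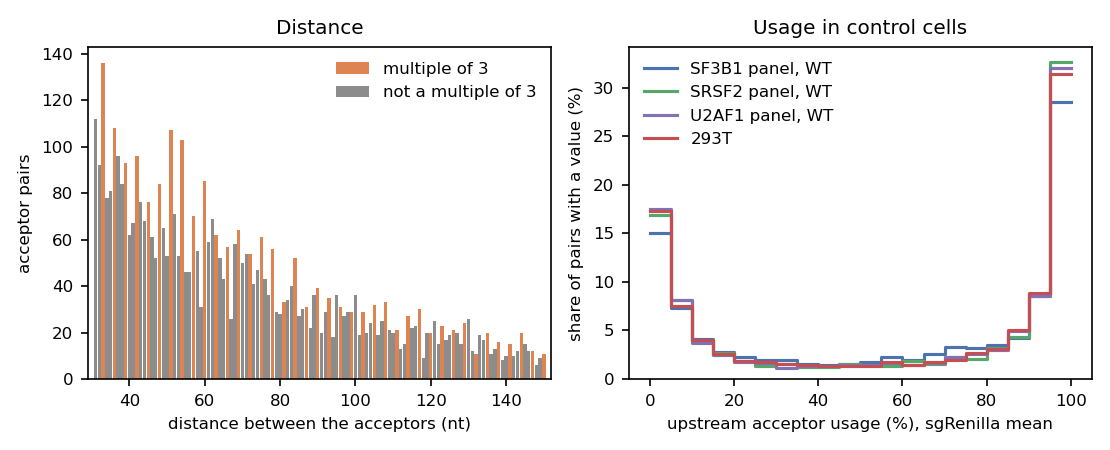
Left, number of acceptor pairs (vertical axis) at each distance between the acceptors in nt (horizontal axis), coloured by whether the distance is a multiple of 3. Right, share of the pairs with a value (vertical axis, percent) by upstream acceptor usage in percent (horizontal axis, mean of the sgRenilla libraries of WT cells) for the 4 panels; the left shows 39.8% of pairs at multiples of 3, and the right shows the pairs gathered at both ends of the scale in every panel.

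The plot of distances and control usage shows the shape shared by the panels: few pairs lay near even use, and the fullest bar sat at the top of the scale.

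The libraries stood apart in 2 ways that bear on the results below. In the SF3B1 panel per-pair differences between the 2 runs had medians of 3 to 4 points in every library, and so had those between 2 libraries of a group. For 21 of 2378 tested pairs, however, the runs lay at least 20 points apart in each of the 8 libraries other than K700E sgSUGP1. The same held for 587 of the 50823 tested events of every type. In the 21 pairs the median gap was 33.1 points in those 8 libraries, against -1.5 points in the 2 K700E sgSUGP1 libraries. CCDC61, a centriole protein, shows this: run 1 and run 2 gave 10 and 74% in WT sgRenilla, 18 and 87% in K700E sgRenilla, but 9 and 12% in the first K700E sgSUGP1 library. In the U2AF1 panel, 86 of the tested pairs (4.17%) had the library numbered 1 outside the other libraries in all 4 groups, by at least 10 points on average over the groups, against 13 (0.631%) for number 2 and 20 (0.971%) for number 3. Counted in the direction of that displacement, the 86 pairs lay at medians of 5.5, 4.0 and 4.5 points from the panel median in the 3 P95H sgGPATCH8 libraries of the SRSF2 panel, against medians of -2.0 to 0.5 points in the other 9 libraries. Of the 85 tested there, 74 moved in that direction with sgGPATCH8 in P95H cells. The labels give no reason for either feature.

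Guides against GPATCH8 were compared with sgRenilla to ask what loss of GPATCH8 does to acceptor choice in cells with and without each mutation. A pair was called when limma's moderated test, fitted on all events of a panel and adjusted by Benjamini-Hochberg over all of them, gave an adjusted p under 0.05 and the group means differed by at least 5 points. In cells with WT SRSF2, where each group had 3 libraries, 11 of 2058 tested pairs changed (0.534%), 4 upwards and 7 downwards, against 0.491% of all tested events (0.207% rose and 0.284% fell). They lay in KANSL3, TMEM134, STYXL1, ALG8, PGS1 and BTN2A3P and 1 unnamed locus, which fell, and in DRAM2 and RNF44 with 2 pairs each, which rose. Leaving out any 1 library left 3 to 6 pairs called.

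KANSL3, a subunit of the NSL histone acetyltransferase complex, was called in more comparisons than any other pair, 5 of 20. Its acceptors lie 61 nt apart at chr2:97297219-97302658 (hg19, minus strand, positions as the files give them for the longer junction), in a stretch with coding and untranslated sequence, and both junctions are annotated. In cells with WT SRSF2 its upstream usage was 24, 32 and 27% in the sgRenilla libraries and 12, 7 and 7% in the sgGPATCH8 libraries. Every sgGPATCH8 library lay below every sgRenilla library, a change of -19 points (log2 ratio of upstream to downstream use -1.93 ± 0.26 SE, adjusted p = 0.0097). With P95H SRSF2 the values of KANSL3 were 29, 22 and 22% against 8, 10 and 8% (adjusted p = 0.0066). With WT U2AF1 they were 19, 24 and 23% against 6, 4 and 4% (adjusted p = 0.013), and with S34F 13, 16 and 18% against 3, 3 and 2% (adjusted p = 0.0096). In 293T cells KANSL3 stood at 32 and 26% with sgRenilla and at 6, 9, 7 and 8% with sgGPATCH8 (a change of -21.5 points, adjusted p = 0.032). The SF3B1 panel gave 35% against 9.5 and 12% in WT cells and 24.5% against 6 and 8.5% in K700E cells, with adjusted p-values of 0.22 and 0.17 and a single sgRenilla library each. So the sgGPATCH8 libraries were lowest in all 7 settings, and the test was passed in 5. The call was lost when any 1 library was left out in 293T cells, and without either of the replicates 2 or the sgGPATCH8 replicate 3 with WT SRSF2, without any replicate 2 or 3 with WT U2AF1, and without either replicate 3 or the sgRenilla replicate 2 with S34F. With sgSUGP1, KANSL3 stood at 50.5 and 47% in WT K562 cells and at 31, 33, 29 and 35% in 293T cells, above or among the sgRenilla libraries.

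TMEM134, which encodes a membrane protein, has acceptors 35 nt apart in coding sequence. With WT SRSF2 its upstream usage was 96, 94 and 91% with sgRenilla and 75, 73 and 70% with sgGPATCH8, a change of -21.0 points (log2 -2.37 ± 0.32 SE, adjusted p = 0.01). With P95H, TMEM134 gave 93, 93 and 95% against 75, 78 and 65% (adjusted p = 0.004). In the other settings the sgGPATCH8 libraries of TMEM134 were also all below the sgRenilla libraries, with differences of -14.0 to -22.7 points, without passing the test (adjusted p = 0.1 to 0.33).

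STYXL1, a phosphatase relative that lacks catalytic activity, has acceptors 48 nt apart in coding sequence, of which only the upstream one is annotated. With WT SRSF2 its values were 94, 92 and 93% with sgRenilla and 80, 80 and 80% with sgGPATCH8, a change of -13.0 points (log2 -1.61 ± 0.18 SE, adjusted p = 0.0043). With P95H, STYXL1 gave 92, 91 and 92% against 78, 82 and 76% (adjusted p = 0.0026). ALG8, a glucosyltransferase of N-glycan assembly, has acceptors 34 nt apart and stood at 86, 88 and 83% against 72, 67 and 71% with WT SRSF2, a change of -15.7 points (adjusted p = 0.027). With P95H, this ALG8 pair gave 88, 89 and 86% against 81, 82 and 77%, a difference that missed the threshold (adjusted p = 0.059). A second ALG8 pair, with the same acceptors and another donor, was called with sgGPATCH8 in P95H cells. PGS1, an enzyme of cardiolipin synthesis, fell from 97, 97 and 97% to 91, 88 and 91% (adjusted p = 0.031). BTN2A3P, a butyrophilin pseudogene whose reads may be shared with its relatives, fell by 9.3 points (adjusted p = 0.047).

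The rising pairs lay in 2 genes. DRAM2, a lysosomal membrane protein of autophagy, has acceptors 45 nt apart in a noncoding transcript of the gene. Its upstream usage was 44, 45 and 44% with sgRenilla and 68, 67 and 69% with sgGPATCH8 in cells with WT SRSF2, a rise of 23.7 points (log2 1.39 ± 0.14 SE, adjusted p = 0.0021), and with P95H it was 56, 51 and 49% against 69, 68 and 66% (adjusted p = 0.0063). In WT cells of the SF3B1 panel DRAM2 gave 37% against 66.5 and 59.5%, and in 293T cells 47 and 40% against 72, 67, 63 and 60%. A second DRAM2 pair, 48 nt apart, shares the downstream junction and is not independent; it rose by 18 points (adjusted p = 0.017). RNF44, a RING-finger protein of the ubiquitin ligase type, has acceptors 64 nt apart in coding sequence and gave 51, 55 and 53% with sgRenilla and 76, 74 and 68% with sgGPATCH8 with WT SRSF2, a rise of 19.7 points (adjusted p = 0.049). A second RNF44 pair, 61 nt apart, shares the upstream junction and rose by 13.3 points (adjusted p = 0.026).

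The same 11 pairs were read in the panels that share no library with the SRSF2 panel. All 11 had the same direction in WT and K700E cells of the SF3B1 panel and in WT and S34F cells of the U2AF1 panel, and 10 of 11 in 293T cells; over all members tested in both, 50.5 to 52.5% of pairs had the same direction. The rising pairs had median differences of 16.8 to 21.8 points there and the falling pairs of -9.2 to -14.3 points. These differences are given as a description. The rising pairs are those of DRAM2 and RNF44, which share a junction within each gene. The share over all members includes the pairs that were not called, so it is not a like comparison. BABAM1, a subunit of a deubiquitinating complex of the DNA damage response, has acceptors 38 nt apart in an untranslated region and was called in P95H cells and in no other sgGPATCH8 comparison, with 48, 45 and 52% against 35, 24 and 25% (adjusted p = 0.012). With WT SRSF2, BABAM1 gave 51, 51 and 50% against 40, 40 and 48% (adjusted p = 0.48), and in 293T cells 45 and 45% against 31, 29, 34 and 22%.

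**Figure D2:**
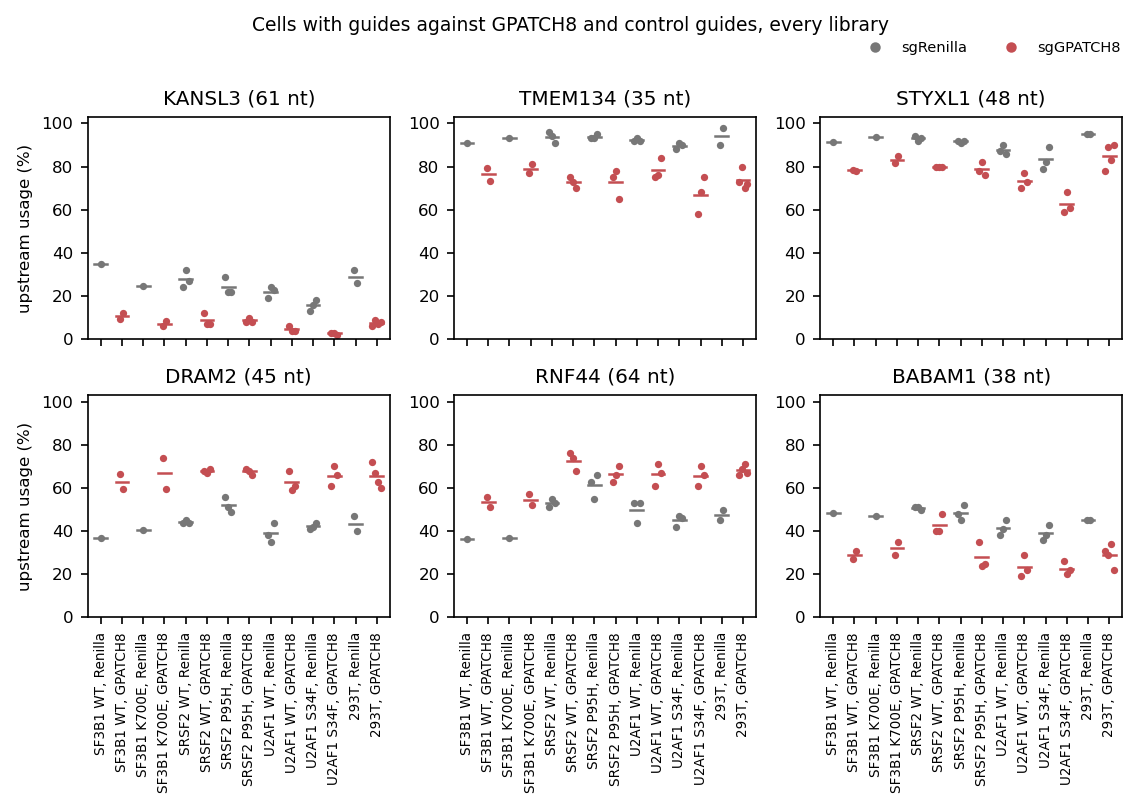
Upstream acceptor usage in percent (vertical axes) with sgRenilla and sgGPATCH8 in each cell background of the 4 panels (horizontal axes), for KANSL3, TMEM134, STYXL1, DRAM2 (45 nt), RNF44 (64 nt) and BABAM1; points are libraries and bars are group means. In KANSL3 every sgGPATCH8 library lies between 2 and 12%, and in DRAM2 the sgGPATCH8 libraries lie above the sgRenilla libraries of the same cells.

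Elsewhere few members were called with sgGPATCH8. In the SF3B1 panel 0 of 2378 tested pairs were called by limma in WT cells (0.0059% of all events; 256 pairs had an unadjusted p under 0.05) and 0 in K700E cells (0.0138%; 238 pairs). In the U2AF1 panel KANSL3 was the 1 pair called of 2060, both with WT (0.0322% of all events) and with S34F (0.0345%). In 293T cells KANSL3 was again the 1 pair called, of 2137 (0.0731% of all events), and was lost when any 1 library was left out. With P95H SRSF2, 81 of 2058 pairs, the named ones in 68 genes, were called (3.94%), 50 upwards and 31 downwards, against 4.84% of all events (1.89% rose and 2.95% fell). Leaving out any 1 library left 42 to 55 pairs called. Whether the response differed between P95H and WT cells was tested as an interaction, which called 0 pairs by limma (208 with an unadjusted p under 0.05; 0.0614% of all events). The interaction also called 0 pairs for K700E (182 with an unadjusted p under 0.05; 0.0295% of all events) and 0 for S34F (95; 0%).

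With sgGPATCH8 in P95H cells, PLEKHN1 gave 54, 69 and 63%, against 92, 92 and 96% with sgRenilla (a change of -31.3 points, adjusted p = 0.0051), while the WT values of PLEKHN1 were 93, 96 and 90% against 92, 95 and 97%. Its P95H sgGPATCH8 libraries lay below all others of the panel. DOK3, an immune adaptor, fell by 35.3 points (adjusted p = 0.0026). POLD2, a subunit of DNA polymerase delta, rose from 32, 31 and 29% to 58, 64 and 65% (adjusted p = 0.00095). APTX, aprataxin, an enzyme of DNA strand-break repair, rose from 29, 29 and 24% to 50, 46 and 49% (adjusted p = 0.0041). SETD5, a chromatin protein, rose by 13.7 points (adjusted p = 0.027) and TIAL1, an RNA-binding regulator of splicing, by 15 points (adjusted p = 0.011).

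The displacement shared with library 1 of the U2AF1 panel runs through this comparison. Of the 77 called pairs that were also tested in the U2AF1 panel, 18 (23.4%) were among the 86 displaced pairs, against 4.67% of the tested pairs, and all 18 moved in the direction in which library 1 was displaced; without them, 63 pairs were called. POLD2, APTX, SETD5, TIAL1 and DOK3 are among the 18: library 1 lay 23 points above the others for POLD2, 28.5 above for APTX, 17.6 above for SETD5, 19.9 above for TIAL1 and -18.5 points from them for DOK3. The part of this displacement in the sgGPATCH8 result of P95H cells was not tested. None of the 11 pairs called with WT SRSF2 is among the 86.

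SF3B1 K700E cells were compared with WT cells to ask which acceptors differ between them. Each genotype has 1 cell name, so the mutation and other differences between the cells cannot be told apart. With the difference averaged over the 3 guide targets, 72 of 2378 tested pairs changed (3.03%), 39 upwards and 33 downwards, in 60 genes and 9 unnamed loci. Over all tested events 3.35% changed (2.13% rose and 1.22% fell), so the share among these pairs lay near that of all events, and the median difference was -0.25 points among these pairs and 0.33 over all events. With sgRenilla alone, which has 1 library per genotype, 0 pairs were called by limma (278 with an unadjusted p under 0.05; 0% of all events). The median differences of the rising pairs were 18.5, 14.5 and 10.5 points with sgRenilla, sgGPATCH8 and sgSUGP1, and of the falling pairs -15.5, -15.2 and -8.75 points. The comparisons for the 3 targets make up the average that called the pairs, so this is a description. Leaving out any 1 library left 9 to 23 pairs called. Without the 2 K700E sgSUGP1 libraries, whose runs stand apart as given above, 2 of the pairs were called, DVL2 and an unnamed locus on chromosome 1; 1 of the 72 pairs is among the 21 with wide gaps between runs.

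ENTPD1, the ectonucleotidase CD39, had the largest rise. Its acceptors lie 79 nt apart in coding sequence, and its upstream usage was 51% with sgRenilla, 53 and 47% with sgGPATCH8 and 77.5 and 70% with sgSUGP1 in WT cells, against 95.5%, 86.5 and 94.5%, and 94 and 91.5% in K700E cells. Every K700E library lay above every WT library, and the averaged difference was 34.7 points (log2 3.12 ± 0.31 SE, adjusted p = 0.013). An unnamed locus on chromosome 1 had the largest fall, by 61.3 points (adjusted p = 0.0071), from 63 to 78% in WT cells to 5.5 to 13% in K700E cells. STRA6, the membrane receptor for vitamin A, changed at 2 separate places. The pair 44 nt apart fell by 20 points (adjusted p = 0.01), from 27.5, 22.5, 25, 25.5 and 17% to 3, 4, 7.5, 3.5 and 4%, and the STRA6 pair 40 nt apart rose by 24.0 points (adjusted p = 0.024). TRIM2, a ubiquitin ligase, rose by 32.7 points (adjusted p = 0.036) and SYTL2, a vesicle transport protein, by 23.2 points (adjusted p = 0.019). FAM122C fell by 39.2 points (adjusted p = 0.014) and RNF32 fell by 18.8 points (adjusted p = 0.02). BRD8, a subunit of a histone acetyltransferase complex, fell by 5.7 points (adjusted p = 0.047), from 93.5 to 96% in WT cells to 87.5 to 91% in K700E cells.

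Loss of SUGP1 was measured with sgSUGP1 against sgRenilla, in WT and K700E cells and in 293T cells. In WT cells of the SF3B1 panel 1 of 2378 pairs was called, DVL2, which fell (0.0197% of all events), and 243 pairs had an unadjusted p under 0.05. DVL2, a transducer of Wnt signals, has acceptors 72 nt apart in coding sequence at chr17:7131030-7131296 (hg19, minus strand). Its upstream usage in WT cells was 95.5% with sgRenilla, 92 and 93.5% with sgGPATCH8 and 59.5 and 63% with sgSUGP1 (a change of -34.2 points, log2 -3.49 ± 0.26 SE, adjusted p = 0.048). In K700E cells DVL2 stood at 67% with sgRenilla, 65.5 and 62% with sgGPATCH8 and 59 and 59.5% with sgSUGP1, near the WT sgSUGP1 values; both K562 comparisons share the WT sgRenilla library. The averaged difference of K700E from WT for DVL2 was -19.8 points (adjusted p = 0.0076). In 293T cells DVL2 gave 95 and 95% with sgRenilla, 94, 96, 97 and 96% with sgGPATCH8 and 72, 65, 76 and 71% with sgSUGP1 (-24.0 points, adjusted p = 0.064). Its call with sgSUGP1 in WT cells was lost with the larger offset, with a missing library allowed, with either run alone and without either sgSUGP1 library.

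SKIV2L, the helicase of the Ski complex that feeds RNA to the exosome, has acceptors 63 nt apart and showed the opposite direction. Its upstream usage was 17% with sgRenilla, 18.5 and 16% with sgGPATCH8 and 50 and 46% with sgSUGP1 in WT cells, and 43.5%, 42.5 and 44%, and 54 and 51% in K700E cells. The averaged K700E difference for SKIV2L was 19 points (log2 1.31 ± 0.13 SE, adjusted p = 0.013), and the sgSUGP1 difference in WT cells was 31 points (adjusted p = 0.092). In 293T cells SKIV2L rose from 11 and 12% to 38, 38, 45 and 35% with sgSUGP1 (27.5 points, adjusted p = 0.037) and stood at 14% in all 4 sgGPATCH8 libraries. Together with BCAM, the Lutheran blood group glycoprotein, it made up the 2 of 2137 pairs called with sgSUGP1 in 293T cells, where 0.0452% of all events were called. BCAM fell from 98 and 99% to 84, 76, 79 and 74% (adjusted p = 0.023), with 96, 98, 97 and 98% in the sgGPATCH8 libraries. Both 293T calls were lost when any 1 library was left out (adjusted p = 0.12 to 0.29).

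TMEM218, a protein of the ciliary transition zone, has acceptors 34 nt apart in an untranslated region and rose with K700E by 24.7 points (adjusted p = 0.031). Its WT values were 26% with sgRenilla and 67 and 62.5% with sgSUGP1, against 63% and 66.5 and 71.5% in K700E cells, and in 293T cells TMEM218 gave 21 and 18% with sgRenilla and 49, 60, 45 and 51% with sgSUGP1 (adjusted p = 0.19). RAD9A, a member of the DNA damage checkpoint clamp, has acceptors 32 nt apart in coding sequence and fell by 9.1 points with K700E (adjusted p = 0.038). In WT cells RAD9A stood at 86% with sgRenilla and 62.5 and 57.5% with sgSUGP1, against 71.5% and 61.5 and 60.5% in K700E cells, and in 293T cells at 84 and 87% against 55, 53, 68 and 47% (adjusted p = 0.12). ABCC5, an organic anion transporter, fell from 8% with sgRenilla in WT cells to 0.5% in K700E cells, over all targets by 5.5 points (adjusted p = 0.012). Its sgSUGP1 values in WT cells were 1.5 and 2%. ENTPD1 differed from these pairs in 293T cells, where sgSUGP1 gave 17, 17, 9 and 4% beside 36 and 11% with sgRenilla. In DVL2, SKIV2L, TMEM218 and RAD9A the sgSUGP1 libraries of 293T cells lay on the same side of their controls as the K700E sgRenilla library lay of WT sgRenilla in K562 cells. Of the pairs called for K700E against WT, 55 were tested in 293T cells. There 32 (58.2%) had the same direction with sgSUGP1, against 49% of all members tested in both. With sgGPATCH8 28 (50.9%) had it, against 47.5%.

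**Figure D3:**
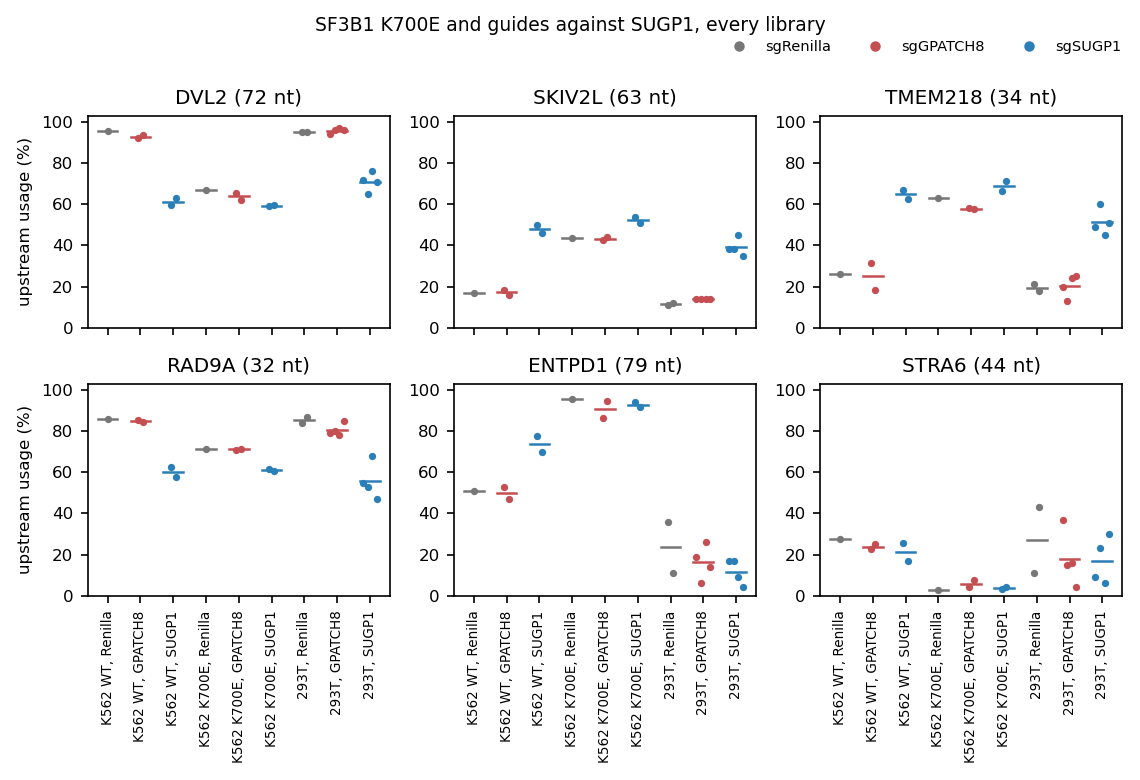
Upstream acceptor usage in percent (vertical axes) in K562 WT, K562 K700E and 293T cells with sgRenilla, sgGPATCH8 or sgSUGP1 (horizontal axes), for DVL2, SKIV2L, TMEM218, RAD9A, ENTPD1 and STRA6 (44 nt); points are libraries and bars are group means. In DVL2 the sgSUGP1 libraries of WT K562 cells (59.5 and 63%) lie beside the K700E libraries (59 to 67%), while in STRA6 they lie with the other WT libraries.

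In K700E cells 1 pair, CCDC61, was called with sgSUGP1 (0.0944% of all events; 218 pairs had an unadjusted p under 0.05), and it is among the 21 pairs with wide gaps between runs. Its runs gave 18 and 87% with sgRenilla and 9 and 12%, and 10 and 11%, with sgSUGP1. Run 1 alone called 0 pairs in this comparison, and run 2 alone 27. The interaction of K700E and sgSUGP1 called 0 pairs by limma (169 with an unadjusted p under 0.05; 0% of all events).

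SRSF2 P95H was compared with WT SRSF2 within sgRenilla cells and within sgGPATCH8 cells. With sgRenilla, 16 of 2058 pairs were called (0.777%) and all 16 fell (1 or 2 when any 1 library was left out); over all tested events 1.08% were called, of which 0.482% rose and 0.598% fell. Lower usage with P95H was the more frequent direction among all tested pairs, with 1149 lower and 820 higher. The median was -0.67 points, against 0.33 points over all events. Tilts to one side were not particular to P95H. With sgGPATCH8 and WT SRSF2, 1072 pairs were lower and 907 higher. With sgSUGP1 in WT cells of the SF3B1 panel, 986 were lower and 1323 higher. The 16 pairs lay in 13 genes and 3 unnamed loci. In sgGPATCH8 cells 74 pairs were called (3.6%), 24 upwards and 50 downwards, against 4.06% of all events (1.73% rose and 2.33% fell), and 31 to 40 when any 1 library was left out. There 1032 of all tested pairs were lower and 952 higher, with a median of -0.33 points. Of the 70 of these tested in the U2AF1 panel, 13 are among the displaced pairs given above, and without the displaced pairs 61 were called. Of the 15 pairs called with sgRenilla that were tested in the U2AF1 panel, UBE3A and ATP2C1 are among the displaced pairs, and 14 of the 16 were called without them.

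NDUFAF5, an assembly factor of respiratory complex I, had the largest fall among the named pairs with sgRenilla. Its acceptors lie 134 nt apart, and its upstream usage was 36, 31 and 38% with WT and 14, 18 and 17% with P95H (a change of -18.7 points, log2 -1.42 ± 0.21 SE, adjusted p = 0.017). In sgGPATCH8 cells NDUFAF5 gave 31, 29 and 35% against 14, 19 and 13% (adjusted p = 0.0091), so the values with P95H lay below those with WT for both guides. UBE3A, a ubiquitin ligase, has acceptors 125 nt apart in an untranslated region and stood at 35, 39 and 26% against 15, 19 and 15% with sgRenilla (adjusted p = 0.024) and at 29, 30 and 26% against 8, 7 and 7% with sgGPATCH8 (adjusted p = 0.0013). ATP2C1, a calcium pump of the Golgi, fell by 16 points (adjusted p = 0.02).

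SNRPB, a core Sm protein of the spliceosome's small nuclear ribonucleoproteins, has acceptors 146 nt apart in coding and untranslated sequence and showed a small spread. Its upstream usage was 73, 71 and 71% with WT and 60, 61 and 61% with P95H (a change of -11 points, adjusted p = 0.032), and in sgGPATCH8 cells 72, 72 and 73% against 60, 62 and 60% (adjusted p = 0.013). DHX29, a helicase of translation initiation, has acceptors 49 nt apart and gave 28, 25 and 25% against 17, 15 and 15% (a change of -10.3 points, adjusted p = 0.019), and with sgGPATCH8 24, 21 and 23% against 11, 11 and 10% (adjusted p = 0.0018). DHX29 also fell with sgGPATCH8 within P95H cells, by 5.0 points (adjusted p = 0.031). PPP4R1, a regulatory subunit of protein phosphatase 4, has acceptors 51 nt apart and gave 40, 36 and 41% against 29, 27 and 28% with sgRenilla (adjusted p = 0.038) and 48, 46 and 46% against 35, 31 and 32% with sgGPATCH8 (adjusted p = 0.0093). In each of SNRPB, DHX29 and PPP4R1 every P95H library lay below every WT library with the same guide.

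Other pairs were called with 1 guide only. SLTM, an RNA-binding protein related to SAFB, has acceptors 54 nt apart and fell from 64, 66 and 70% to 54, 50 and 50% with sgRenilla (adjusted p = 0.032), while in sgGPATCH8 cells SLTM gave 52, 56 and 53% with WT and 50, 56 and 50% with P95H. ARFIP2, arfaptin 2, a Golgi membrane protein, fell from 56, 56 and 53% to 38, 43 and 43% (adjusted p = 0.027), and with sgGPATCH8 ARFIP2 gave 56, 56 and 57% against 51, 48 and 50%. TNIP1, an inhibitor of NF-kappaB signalling, fell by 13.0 points (adjusted p = 0.024). The interaction called none of these, so the effect of P95H is not shown to differ between the guides. MSTO2P, a pseudogene whose reads may be shared with its parent gene, was called in sgGPATCH8 cells (adjusted p = 0.024), but its sgRenilla P95H libraries gave 86, 27 and 90%, with 1 library far from the others, and library 1 of the U2AF1 panel lay 56.2 points above the others for it.

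**Figure D4:**
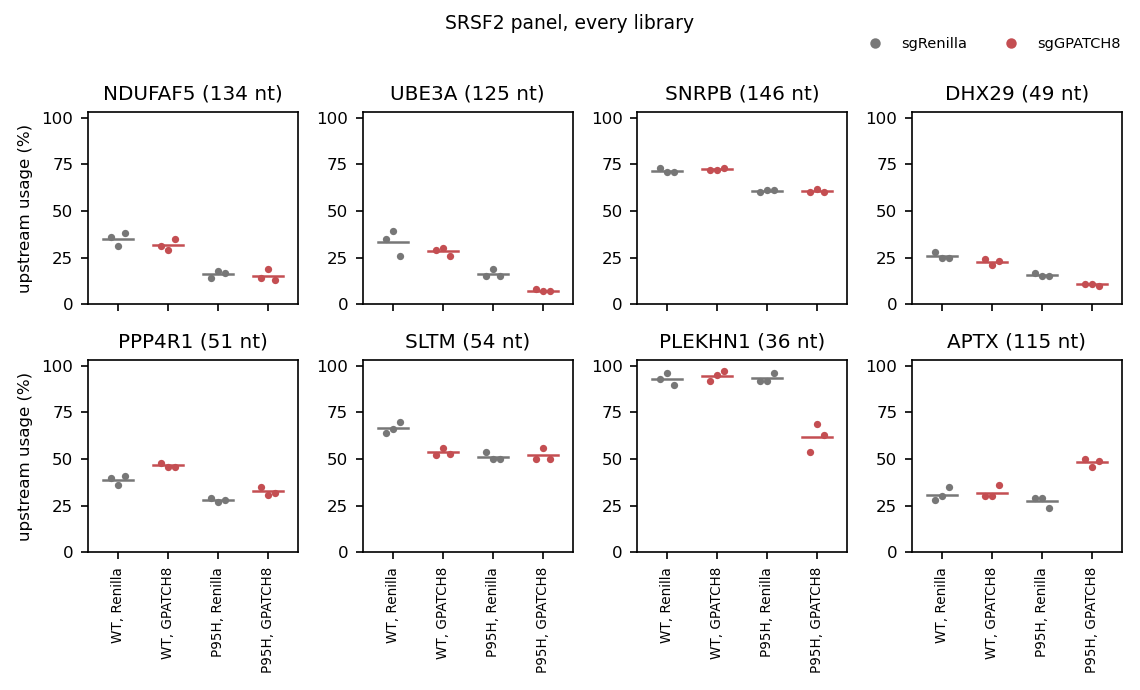
Upstream acceptor usage in percent (vertical axes) in the 4 groups of the SRSF2 panel (horizontal axes), for NDUFAF5, UBE3A, SNRPB, DHX29, PPP4R1, SLTM, PLEKHN1 and APTX; points are the 3 libraries of a group and bars are group means. The P95H libraries of the first 5 genes lie below the WT libraries with the same guide, and PLEKHN1 and APTX lie farthest from the other groups in the P95H sgGPATCH8 libraries.

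The stretches were grouped by their motifs, without a test. Stretches with more GGNG than CCNG had a median difference of -1.33 points with P95H in sgRenilla cells, with 226 pairs lower and 114 higher of 355, and 7 of them fell. Stretches with more CCNG than GGNG had a median of -0.33 points, with 478 lower and 410 higher of 937, and 2 of them fell. In sgGPATCH8 cells the medians were -1.33 and 0.00 points; 17 of the 355 GGNG-rich stretches fell and 2 rose, and 9 of the 937 CCNG-rich stretches fell and 10 rose. The mean usage over GGNG-rich stretches was 57.4, 57.3 and 57.4% in the WT sgRenilla libraries and 55.5, 55.9 and 55.2% in the P95H sgRenilla libraries, and over CCNG-rich stretches 54.8, 55.2 and 55.1% against 54.8, 54.7 and 54.8%. The P95H libraries thus lay below the WT libraries for GGNG-rich stretches by more than the spread within a group, and for CCNG-rich stretches the groups met at 54.8%. Stretches with as many of one as of the other also lay lower with P95H in sgRenilla cells, at means of 56.2, 56.2 and 56.1% against 55.3, 55.4 and 55.3% (285 lower and 176 higher of 478, median -1.0 points). Lower usage was therefore not particular to GGNG-rich stretches.

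U2AF1 S34F was compared with WT U2AF1 in the same way. With sgRenilla, 0 of 2060 pairs were called by limma (260 with an unadjusted p under 0.05, lowest adjusted p 0.12), against 0.0023% of all events. In sgGPATCH8 cells 3 pairs were called (0.146%), all falling, against 0.023% of all events: TAF1D, MKLN1-AS and an unnamed locus on chromosome 14. TAF1D, a factor of the RNA polymerase I promoter complex, has acceptors 59 nt apart in coding sequence; it gave 99, 99 and 99% with WT and 93, 92 and 94% with S34F (a change of -6.0 points, log2 -2.08 ± 0.24 SE, adjusted p = 0.03). With sgRenilla TAF1D gave 97, 98 and 98% against 92, 93 and 91% (adjusted p = 0.12). MKLN1-AS, a noncoding RNA antisense to MKLN1, has acceptors 40 nt apart and gave 76, 80 and 77% against 49, 50 and 52% (a change of -27.3 points, adjusted p = 0.032), and with sgRenilla 68, 72 and 70% against 49, 51 and 53% (adjusted p = 0.13). For TAF1D and MKLN1-AS the S34F libraries lay below all WT libraries with both guides. The libraries kept strand by dUTP, but whether the counting used it is not given in the sources used here, so reads of MKLN1-AS and MKLN1 may not be told apart. The unnamed locus gave 85, 85 and 89% against 45, 60 and 58% (adjusted p = 0.032).

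EGFL8, a secreted protein with EGF-like repeats, gave 86, 83 and 83% with WT and 62, 63 and 65% with S34F in sgRenilla cells (adjusted p = 0.12). ARFIP2 had the opposite direction to its fall with P95H, with 51, 47 and 45% against 68, 71 and 70% (22.0 points, adjusted p = 0.12). Same-numbered libraries of WT and S34F sgRenilla cells deviated together (correlations 0.15 to 0.4, against -0.24 to 0.13 for different numbers). With the library number as a block, 2 pairs were called with sgRenilla. They are named after their values were seen: NUTM2A-AS1, an antisense RNA, gave 98, 96 and 95% against 82, 57 and 56% (adjusted p = 0.023 with the block and 0.12 without), and NSMCE2, a SUMO ligase of the SMC5/6 complex, gave 34, 26 and 21% against 14, 9 and 9% (adjusted p = 0.048 and 0.13). In sgGPATCH8 cells the block called more pairs than the main fit, as counted below. The 3 calls of the main fit there were lost when any 1 library was left out. Without the libraries numbered 1 the comparisons of the U2AF1 panel called 0 pairs.

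The pairs were also grouped by the base before the downstream AG, without a test. With a T there, the median difference of S34F from WT in sgRenilla cells was 1.67 points, with 141 pairs higher and 64 lower of 213. With an A it was -2.0 points, with 54 higher and 116 lower of 173, and with a C -0.67 points, with 566 higher and 744 lower of 1354. The order was the same in sgGPATCH8 cells, at 2.00, -2.33 and -0.50 points. Mean usage over pairs with a T before the downstream AG was 47.7, 47.2 and 47.9% in the WT sgRenilla libraries and 50.2, 50.1 and 50.9% in the S34F sgRenilla libraries; over pairs with an A it was 61.4, 60.8 and 62.0% against 58.2, 58.9 and 59.5%. Neither pair of groups overlapped. Pairs with a C did not overlap in sgRenilla cells either, at 55.7 to 56.2% with WT against 54.9 to 55.1% with S34F. Separation of the libraries was therefore not particular to a T or an A.

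**Figure D5:**
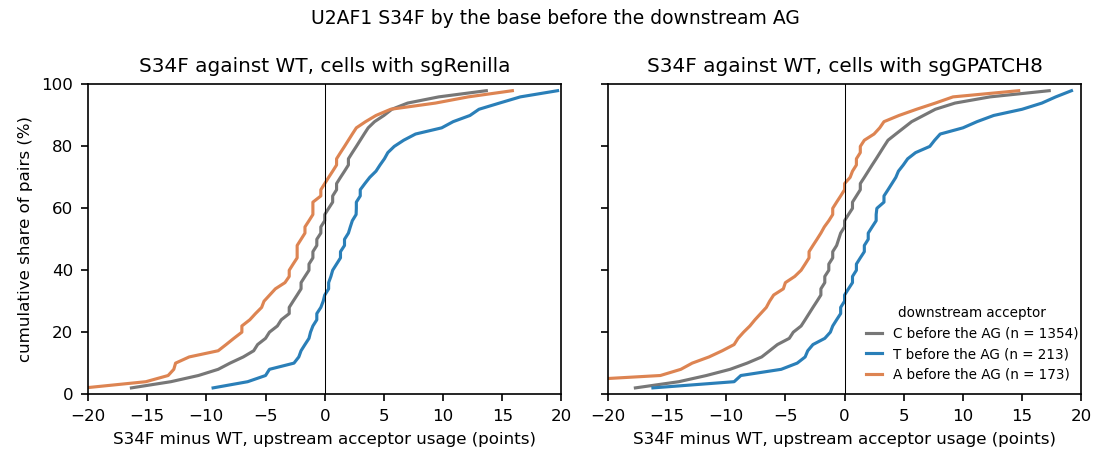
Cumulative share of acceptor pairs in percent (vertical axes) by the difference in upstream acceptor usage between S34F and WT U2AF1 in points (horizontal axes), in cells with sgRenilla (left) and sgGPATCH8 (right); lines are pairs with a C (1354), T (213) or A (173) before the downstream AG. With both guides the line for T lies to the right of that for C and the line for A to its left, with medians of 1.67, -0.67 and -2.0 points with sgRenilla.

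At the upstream acceptor, where usage of that site itself is measured, the signs were the other way round: the median was -1.33 points for an upstream TAG (44 higher and 90 lower of 138) and 2.00 points for an upstream AAG (34 higher and 16 lower of 51), beside 0.33 points for an upstream CAG. Pairs with an upstream TAG and a downstream CAG had a median of -1.67 points (27 higher and 69 lower of 98). TAF1D and MKLN1-AS, with a downstream AAG, and EGFL8, with an upstream TAG, have the sequences printed above.

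Lists of genes were read across all comparisons. Of 40 genes known as targets of mutant SF3B1, 16 held 24 of the pairs, and with K700E 1 of 19 tested pairs rose (SKIV2L) and 2 fell (DVL2 and ABCC5), with a median of -0.67 points, where 2.13% of all events rose and 1.22% fell. As many pairs of this list, 2 of 19, fell with P95H SRSF2 in sgGPATCH8 cells (SERBP1 and DPH5), where 2.33% of all events fell. The list was drawn up with results of these data known and is not independent evidence of direction. Of 164 spliceosome and splicing factor genes, 43 held 59 pairs; SNRPB was the 1 of 21 tested pairs to fall with P95H in sgRenilla cells, with none rising and a list median of -1.0 points. Over all events 0.598% fell there. In sgGPATCH8 cells 1 of 21 rose with P95H (TIAL1) and 2 fell (SNRPB and HNRNPD, an AU-rich element binding protein). Over all events 1.73% rose and 2.33% fell in that comparison. Of 205 DNA repair and cell cycle genes, 51 held 74 pairs. RAD9A was the 1 of 49 tested pairs to fall with K700E, where 1.22% of all events fell. With P95H in sgGPATCH8 cells 1 of 41 rose and 1 fell. DDX11, a helicase of sister chromatid cohesion, rose by 6.0 points (adjusted p = 0.035). CDC27, a subunit of the anaphase-promoting complex, fell by 5.3 points (adjusted p = 0.0099). Of 140 chromatin genes, 27 held 38 pairs. BRD8 fell with K700E (1 of 22, against 1.22% of all events). SETD5 rose with P95H in sgGPATCH8 cells (1 of 17, against 1.73%). With 1 or 2 pairs each, these counts are not read as results about the lists. TIAL1 and SETD5 are among the pairs displaced with library 1 of the U2AF1 panel. The other lists had 0 calls by limma in any comparison. Known SRSF2 targets held 9 pairs (1 to 6 tested), known U2AF1 targets 8 (2 to 4) and haematopoietic and heme genes 17 (9 to 11). At most 4.84% of all events were called in a comparison, so 0 calls among so few pairs is no result about these genes.

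Most pairs that changed did so in 1 comparison. Over the 20 comparisons 166 pairs were called in 1, 42 in 2, UBE3A, ATP2C1 and DHX29 in 3 each, and KANSL3 in 5; comparisons within a panel share libraries, so these counts are not independent.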

How the data were processed

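The members and the 7 gene lists were chosen with earlier results of these data known. The series has 55 samples in 4 panels. RNA was poly(A)-selected and sequenced as strand-marked paired-end libraries, per the labels' protocols. The 4 deposited tables hold, for each splicing event, the fraction of the isoform listed first, which the authors rounded to 2 decimals; how it was estimated is not given in the sources used here. RSEM 1.2.4, Bowtie, TopHat and TopHat2 2.0.8b and the builds hg19 and GRCh37 are named in the submitters' processing notes, without their roles. With no counts, precision could not be computed per value, and the spread between libraries stands in for it.

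From the deposited fractions, 54 columns gave 44 libraries in 17 groups, with the 2 runs of an SF3B1 panel library averaged; 0 columns were left out. The P95H sgGPATCH8 library 3 has 1 column for its runs. Fractions were turned into log2((fraction + 0.01) / (1 - fraction + 0.01)) and fitted with limma 3.58.1 (trended, moderated) in R 4.3.3, per panel, over all events with a value in every library, some group mean of at least 5% and some of at most 95%. Benjamini-Hochberg adjustment ran over all events of a comparison, and 20 comparisons were made. In the SF3B1 panel the single sgRenilla library of a genotype is assumed to vary like the other groups. A value in every library was held by 3487 to 3693 members per panel, and 2058 to 2378 were tested; 1491 (30.8%) were tested in every panel and 2872 (59.4%) in at least 1. On simulated data for SRSF2 P95H against WT with sgRenilla (28332 events, 200 changed), 74 events were called, 1 falsely. Of the changes of log2 size 1, 19% were recovered, and of log2 size 2, 54%. The simulation left out events with a mean near either end of the scale and drew noise independently for each library. Its figures therefore do not cover all of the 43963 events tested.

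Genes and annotation were assigned by matching exact intron lengths, chromosome and strand to GENCODE release 29 (GRCh38), with at least 2 neighbouring matches at the same shift within 1000000 bases; no coordinate was converted. Named were, in comparisons with more than 5 calls, up to 10 of the largest rises and 10 of the largest falls, otherwise all called pairs or, with none, the 3 lowest p-values, with called pairs of the gene lists and up to 5 pairs called most often. Same-numbered libraries of the U2AF1 panel deviated together in every pair of groups (correlations of deviations 0.08 to 0.4, against -0.24 to 0.13 for different numbers). The main fit treated no libraries as paired. The replicate block, an alternative, fitted the library number over all groups of the U2AF1 panel together. Alternatives were another offset, a missing library allowed, no filter on group means, single runs, a replicate block and leaving out libraries. Python 3.11.15, pandas 2.3.3, numpy 2.4.6 and matplotlib 3.10.9 were used for summaries and plots. A pair that the rule names is not reported here.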

Additional observations from a re-analysis of the deposited data

How the results depend on the processing

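No named result reversed under any alternative (115 results over 106 pairs). Counts of called pairs follow. For K700E averaged over targets (72), run 1 alone called 8, run 2 alone 16, the fit without the K700E sgSUGP1 libraries 2 and the replicate block 0; leaving out 1 library gave 9 to 23. Without the filter on group means, calls became 3 for K700E with sgRenilla (0), 7 for sgSUGP1 in WT (1), 2 for sgSUGP1 in K700E (1), 1 for each K700E interaction (0), 5 for the P95H interaction (0), 7 for S34F with sgRenilla (0), 16 for S34F with sgGPATCH8 (3), 2 for sgGPATCH8 with WT U2AF1 (1), 3 with S34F (1), 7 for sgGPATCH8 in 293T (1) and 9 for sgSUGP1 in 293T (2). Run 2 alone called 1 for sgGPATCH8 in K700E (0), 27 for sgSUGP1 in K700E (1), 3 for its sgGPATCH8 interaction and 1 for its sgSUGP1 interaction; run 1 alone called 0 for sgSUGP1 in K700E. For sgSUGP1 in WT, each run alone, the offset of 0.05 and a missing library allowed called 0, and the offset of 0.05 called 2 for sgGPATCH8 in 293T.

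With the replicate block, P95H with sgRenilla (16) had 2 calls, P95H with sgGPATCH8 (74) 40 and sgGPATCH8 with WT SRSF2 (11) 6. S34F with sgRenilla had 2, S34F with sgGPATCH8 36 and both 293T comparisons 0. The block changed no call in the comparison of sgGPATCH8 with WT U2AF1. In the other panels the libraries share only a number (correlations -0.05 to 0.03). In the U2AF1 panel same-numbered libraries of S34F and WT sgGPATCH8 cells also deviated together, at 0.08 to 0.24, against -0.15 to 0.08 for different numbers. The main fit, with 3 calls there, takes no account of this. Leaving out 1 library gave 1 to 2 calls for P95H with sgRenilla, 31 to 40 with sgGPATCH8, 3 to 6 for sgGPATCH8 with WT SRSF2, 42 to 55 with P95H (81), 0 to 1 for sgGPATCH8 with WT and with S34F U2AF1, and 0 for S34F with sgGPATCH8, for both sgSUGP1 comparisons of the SF3B1 panel and for both 293T comparisons. Without the libraries numbered 1, all comparisons of the U2AF1 panel called 0. Fewer libraries leave less to estimate the spread from; the cause of the other shifts was not tested.

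Of the single results, 112 kept their side of the threshold with the offset of 0.05 and 3 lost it; a missing library allowed gave 110 and 5, no filter 93 and 14 (8 passed it anew), the block 49 and 49, and single libraries left out 350 and 354. Single runs and the fits without the K700E sgSUGP1 libraries or without the U2AF1 libraries numbered 1 were chosen after seeing the data. Read depth per pair is unknown.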

Other observations

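Control usage was close across the K562 panels and set 293T cells apart at a small number of pairs. Over the 3430 pairs with a control value in every panel, 2795 (81.5%) had the 3 K562 means within 10 points of each other. In 26 pairs (0.758%) the 293T mean lay at least 20 points above every K562 mean and in 45 (1.31%) at least 20 points below. NBR2, a noncoding RNA gene, stood at 94, 97.7 and 96% in the SF3B1, SRSF2 and U2AF1 panels and at 29% in 293T cells, and SH2D2A, a T cell adaptor, at 85.5, 90.3 and 87.7% against 38.5%. CARD9, an adaptor of innate immune signalling, gave 87.5, 87.7 and 91% against 43.5%. In the other direction, UNC13D, a factor of granule release, stood at 1, 1 and 1% against 38%, GABARAPL1, an autophagy protein, at 36.5, 30.3 and 19.7% against 98.5%, and RAD51AP1, a homologous recombination protein, at 30.5, 24.3 and 33% against 98%. The tables were made separately for each panel, cell line and panel cannot be told apart here, and the pairs were picked as the extremes, so no test is given.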
